A study of Mus musculus with 20 samples.

Results

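The baseline microRNA (miRNA) profile of the right ventral hippocampus was described in 10 vehicle-injected mice, which are 10 of the 20 mice of a study of cannabidiol (CBD). The mice were chosen by their treatment label alone, and every miRNA of the deposited expression table was kept, of which 131 are named as 5p arms, 136 as 3p arms and 14 with no arm. They were naïve wildtype males of the strain C57BL/6JOlaHsd that received vehicle by intraperitoneal injection 2 times a day for 5 days, while the labels give neither the vehicle's composition nor the age of the mice. Small RNA was sequenced from 1 library per mouse. The other 10 mice, of the same strain, sex and tissue, received CBD at 200 mg/kg per day. The treatments are not compared here, and the CBD libraries enter only in run means given near the end and in alternative fits over all 20 libraries.

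A miRNA is cut from a hairpin precursor, whose 2 arms can each give a mature miRNA, named 5p or 3p. In the Argonaute protein the mature miRNA pairs with messenger RNAs mainly through its seed, and miRNAs with the same seed form a family with overlapping targets. Many hairpins lie close together in the genome and are transcribed as 1 unit. In the brain, miRNAs act on neuronal identity, dendritic spines and excitability. The ventral hippocampus is linked to emotional behaviour.

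Apart from the rare miR-1961, the mature sequences below are those of the most abundant miRNAs that the results turn on. All are from RefSeq (GRCm38.p6), 5′ to 3′, with the seed, bases 2 to 8, in capitals. Sequences were matched for 247 of the listed miRNAs. The first set holds the 4 miRNAs that took the most reads, and no pair of them shares a seed.
miR-434-3p: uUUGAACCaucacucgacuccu
miR-9-5p: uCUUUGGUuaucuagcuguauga
let-7c-5p: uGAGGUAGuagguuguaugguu
miR-138-5p: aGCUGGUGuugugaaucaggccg
The second set shows 4 more members of the let-7 family with the seed of let-7c-5p, together with miR-1961, whose seed is the same and whose listed sequence is shorter.
let-7b-5p: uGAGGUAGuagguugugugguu
let-7f-5p: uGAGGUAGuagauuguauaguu
let-7a-5p: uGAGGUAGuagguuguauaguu
let-7i-5p: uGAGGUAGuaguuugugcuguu
miR-1961: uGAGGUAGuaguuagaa
The third set shows the leading members of 3 other families, those of miR-30, miR-125 and miR-181.
miR-30c-5p: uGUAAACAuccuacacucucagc
miR-125a-5p: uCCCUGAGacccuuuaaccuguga
miR-125b-5p: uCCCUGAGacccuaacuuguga
miR-181a-5p: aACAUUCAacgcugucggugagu
miR-181b-5p: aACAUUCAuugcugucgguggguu

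The deposited values are log2 levels per 1000000 reads, from which whole reads were recovered. The vehicle libraries held 240475 to 1162620 reads in the listed miRNAs, with a median of 786508, which is 99.2% to 99.4% of the library size listed for them. No miRNA fell below 5 reads in a vehicle library. The deposited technical table gives each library a run number, whose meaning the table does not state. Runs 1 to 4 held 2, 3, 2 and 3 vehicle libraries. Their reads lay between 323357 and 1008180 in run 1, 240475 and 931440 in run 2, 423631 and 641576 in run 3, and 940308 and 1162620 in run 4. Run follows the mouse numbers, so what the labels call a run cannot be told apart from anything else that mice of neighbouring numbers share. A chi-square test of each of the 45 pairs of vehicle libraries, which looks only for a library deposited again, gave at least 19.2 for each degree of freedom, so no pair agreed within counting error. The kit named in the labels has no stated molecular identifiers, so several reads can come from 1 molecule. A share of reads also depends on how well each sequence is ligated and amplified, so orders between miRNAs are orders of reads. Vehicle replicate 5 was the shallowest library, with the highest share for miR-434-3p.

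The most abundant miRNA was miR-434-3p, an imprinted miRNA made from the strand opposite the retrotransposon-like gene Rtl1. It took 12.9%, 19.96% and 35.4% of the reads in the lowest, median and highest vehicle library, with a mean of 20.6% ± 7.001 (SD, n = 10). It held rank 1 in 10 of 10 libraries. By run its mean share was 22.7%, 28.002%, 18.2% and 13.4% in runs 1 to 4, and the 3 libraries of run 4 held the 3 lowest values. Without vehicle replicate 5 the mean was 18.95%. Mir434, its hairpin, covers chr12:109594506-109594599 of GRCm38 on the plus strand, opposite an exon of Rtl1.

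Rank 2 was held in 10 of 10 libraries by miR-9-5p, which controls the growth of neural progenitors and their passage to neurons. Its share was 7.65%, 11.8% and 13.9% in the lowest, median and highest library, with a mean of 11.7% ± 1.86 (SD, n = 10). The same mature sequence comes from 3 hairpins, on chromosomes 3, 13 and 7, all within long noncoding genes, so its reads cannot be assigned to a locus. Rank 3 by mean went to let-7c-5p, of the family that marks differentiated cells, with 4.97%, 7.59% and 8.84% and a mean of 7.47% ± 1.10 (SD, n = 10). Rank 4 went to miR-138-5p, known to limit the size of dendritic spines in rat hippocampal neurons, with 3.49%, 5.14% and 10.8% and a mean of 6.27% ± 2.75 (SD, n = 10). These 4 miRNAs together took 46.0% ± 3.39 of the reads (SD, n = 10).

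Ranks 5 to 10 were held by miRNAs with known roles in brain and other tissues. They were miR-30c-5p at 3.03% ± 0.717, miR-125a-5p at 2.84% ± 1.13, and miR-128-3p, which restrains neuronal excitability in mice, at 2.65% ± 0.793. Next came the imprinted miR-127-3p at 2.13% ± 0.806, miR-26a-5p, encoded in genes of the Ctdsp phosphatases, at 2.07% ± 0.494, and miR-22-3p at 1.89% ± 0.536 (mean share ± SD, n = 10 each). The lowest library for miR-128-3p was vehicle replicate 5 at 0.884%, and the next stood at 2.22%, so that its mean was 2.84% without replicate 5. Ranks 11 to 20 ran from let-7b-5p at 1.71% ± 0.442 to miR-181b-5p at 0.887% ± 0.525. Between them stood miR-541-5p at 1.5997%, let-7f-5p at 1.42%, miR-125b-5p and miR-101a-3p at 1.16% each, miR-204-5p at 1.14%, miR-181a-5p at 1.10%, let-7a-5p at 1.07% and let-7i-5p at 0.919%.

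**Figure D1:**
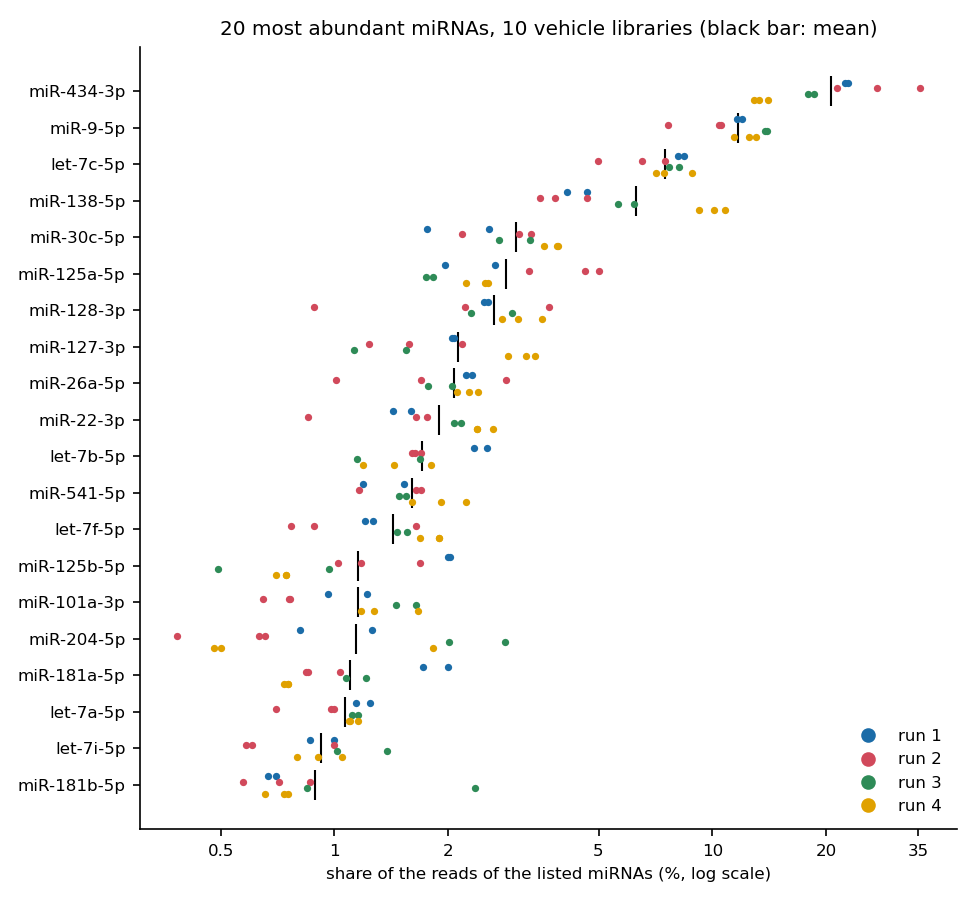
Share of the reads of the listed miRNAs (x axis, percent, log scale) for the 20 most abundant miRNAs, with 1 point per vehicle library coloured by run and a black bar at the mean. The points of miR-434-3p lie between 12.9% and 35.4%, and the 3 run 4 libraries are its lowest and are the highest for miR-138-5p.

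The order was steadier at the top than below. Each of the 20 most abundant miRNAs was set against the next in rank within each library, with an exact sign-flip permutation test on the log2 level, two-sided and adjusted over 20 comparisons. This test takes the libraries as independent and has no term for run. Of the 20 neighbour pairs, 3 differed at an adjusted p under 0.05. The level of miR-434-3p was above that of miR-9-5p by 0.77 on the log2 scale, that of miR-9-5p above that of let-7c-5p by 0.64, and that of miR-138-5p above that of miR-30c-5p by 0.97. Each held in 10 of 10 libraries, with exact p = 0.00195, the smallest that 10 libraries allow, and adjusted p = 0.0130. Ranks 3 and 4 were not separated, since let-7c-5p was above miR-138-5p in 7 of 10 libraries by 0.35 ± 0.56 (SD, adjusted exact p = 0.285). From miR-30c-5p downward no neighbours were separated, and adjusted p lay between 0.146 and 0.943. Of the 20 miRNAs, 13 were among the 20 most abundant in every library, and 32 miRNAs were so in at least 1 library. The most variable of the 20 in place was miR-204-5p, at rank 6 in 1 library and 41 in another.

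Reads were concentrated in few miRNAs. On mean shares, 6 miRNAs held 50% of the reads, 23 held 75%, 65 held 90% and 200 held 99%. In single libraries the number needed for 50% lay between 3 and 7. The 20 most abundant took 72.8% ± 1.43 (SD, n = 10). At least 1% of the reads went to 18 miRNAs, and under 0.1% to 183 miRNAs, which together held 5.29%. The mean share of the highest was 3293 times that of the lowest. The 5 lowest were miR-582-5p, miR-140-5p, miR-455-3p, miR-191-3p and miR-29b-2-5p, with mean shares of 0.00690%, 0.00686%, 0.00666%, 0.00648% and 0.00625%. Their reads per library ran from 5 to 141, so their order cannot be told at this depth.

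Sequence features that the choice of mice did not use were also uneven. Of the 247 miRNAs with a sequence, 104 begin with U, which is 42.1% of the miRNAs, and these took 76.8% ± 3.22 of the reads (SD, n = 10). Those that begin with A are 27.1% of the miRNAs and took 18.2% ± 3.43. A length of 22 bases was held by 57.5% of the miRNAs and 55.8% ± 4.76 of the reads, while a length of 23 bases was held by 15.8% of the miRNAs and 27.9% ± 4.197 of the reads. The 3 top miRNAs begin with U, so these read shares follow mostly a few sequences and are given with no test.

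Grouped by seed, the reads fell mostly into a few families. Bases 2 to 8 gave 231 families, of which 202 had 1 listed member and 29 had more, and these 29 took 35.8% of the reads. For 6 miRNAs without a matched sequence the family was taken from number and arm. The 10 largest families took 71.8%. Of these, miR-434-3p, miR-9-5p, miR-138-5p, miR-128-3p and miR-127-3p are single members, so their family is 1 miRNA.

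The largest family with several members was let-7, with 10 members and 14.1% ± 1.94 of the reads (SD, n = 10). It ranged from 9.75% in vehicle replicate 5 to 16.3% in the highest library, with a median of 14.1%, and was 14.5% on average without replicate 5. Its reads were held 53.1% ± 2.51 by let-7c-5p, 12.2% by let-7b-5p, 10.1% by let-7f-5p, 7.59% by let-7a-5p and 6.498% by let-7i-5p. The rest went to let-7g-5p, let-7d-5p, let-7e-5p, miR-98-5p and miR-1961, the last with 0.116%. Within the family let-7a-5p kept a nearly fixed part, 7.08% to 8.32% over the 10 libraries. Counted from 1 at the 5′ end of let-7c-5p, let-7b-5p differs by A17G, let-7a-5p by G19A, and let-7f-5p by G12A and G19A, so 1 base decides to which member a read belongs. The sources used here do not say how reads with a mismatch were assigned, so the division of the family between these members is uncertain.

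The miR-30 family held 5.82% ± 1.40 of the reads (SD, n = 10) in 6 members, of which miR-30c-5p had 52.2% ± 3.89, miR-30b-5p 14.9%, miR-30a-5p 12.03%, miR-30d-5p 10.4% and miR-30e-5p 9.53%. The brain-enriched miR-384-5p, which has the same seed under another number, had 0.892%. The miR-125 family, vertebrate relatives of the worm timing miRNA lin-4, held 4.02% ± 1.39 in 3 members. Its balance moved between libraries: miR-125a-5p had 70.5% ± 10.3 of the family, with 48.9% in the lowest library and 80.5% in the highest. The share of miR-125b-5p in all reads was 2.01% in run 1, 1.30% in run 2 and 0.731% in runs 3 and 4, while miR-125a-5p was highest in run 2 at 4.29%. The miR-26 family held 2.26% ± 0.502, with 91.4% of it in miR-26a-5p. The miR-181 family, known from lymphocytes and brain, held 2.26% ± 0.726, with 48.7% ± 10.8 in miR-181a-5p and 38.5% ± 10.2 in miR-181b-5p.

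The shares of 6 of the 10 largest families differed between runs (exact permutation test of the F ratio over all 25200 assignments of libraries to runs, adjusted over 10 families). The smallest p was that of miR-138-5p, with 4.39%, 3.996%, 5.90% and 10.05% in runs 1 to 4 (exact p = 0.000794, adjusted p = 0.00794), where the 3 libraries of run 4 lay above the 7 others. The others were miR-9-5p and miR-127-3p (exact test, adjusted p = 0.0228 each), miR-434-3p (0.0333), the miR-125 family (0.0384) and the miR-30 family (0.0402). By log2 level, however, miR-9-5p was not called between runs (limma's moderated F test, adjusted p = 0.415). In that test miR-138-5p, miR-127-3p and miR-434-3p were called (adjusted p = 0.00467, 0.00938 and 0.0105). The let-7 family was not called (exact p = 0.101, adjusted p = 0.126), nor were the miR-181 (0.0957), miR-26 and miR-128-3p families (0.706 each). The number called was 1 without vehicle replicate 1, 2, 8 or 9, 2 without replicate 10, and 3 without replicate 6 or 7. Shares sum to 100% in each library, so a rise of miR-434-3p lowers the share of the others.

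Grouped by place in the genome, 95 of the 232 hairpins placed lay in 31 clusters, defined as neighbours on 1 strand with at most 10000 bases between them. These clusters held 55.4% ± 4.62 of the reads (SD, n = 10). For 27 miRNAs with several loci, the reads were divided equally over the loci, which the data cannot check. The largest cluster was that on chromosome 12 at 109585789 to 109595388 (GRCm38, plus strand), with 7 hairpins from Mir337 to Mir136. It held 16.9%, 22.2% and 37.7% of the reads in the lowest, median and highest library, with a mean of 23.5% ± 6.57 (SD, n = 10). The highest was vehicle replicate 5, and the mean without it was 21.96%. Of its reads 87.5% were miR-434-3p and 9.04% miR-127-3p, while miR-433-3p had 1.14% and each of the other 9 miRNAs under 1%.

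Further along chromosome 12, at 109709060 to 109743795, the large cluster from Mir379 to Mir410 held 26 hairpins and 37 listed miRNAs but 4.57% ± 0.842 of the reads. Much of it lies in the long noncoding gene Mirg. Of its reads 34.98% were miR-541-5p, 9.35% miR-667-3p, 9.28% miR-411-5p and 6.10% miR-369-3p. Both clusters belong to the imprinted Dlk1-Meg3 region, whose miRNAs are expressed from the maternal chromosome. Over the whole region, from 109563692 to 109743795, 37 hairpins gave 55 of the listed miRNAs and 28.7% ± 6.11 of the reads (SD, n = 10), from 22.5% to 41.9% and with a mean of 27.3% without vehicle replicate 5. By run the Rtl1 cluster held 25.5%, 30.6%, 20.3% and 17.3% and the Mirg cluster 3.62%, 4.70%, 4.21% and 5.32% in runs 1 to 4.

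The next clusters by share hold let-7 members. On chromosome 15, let-7c-2 and let-7b span 801 bases in the noncoding gene Lncppara and held 5.50% ± 0.802. On chromosome 16, miR-99a and let-7c-1 in an intron of Mir99ahg held 3.80% ± 0.560. On chromosome 17, miR-99b, let-7e and miR-125a in Spaca6 held 3.18% ± 1.13. The first 2 values rest on the equal division of let-7c-5p, and with miRNAs of several loci left out the chromosome 15 cluster held 1.77%. The miR-30c-1 and miR-30e pair in Nfyc, on chromosome 4, held 2.09% ± 0.549, and the let-7a-1, let-7f-1 and let-7d cluster on chromosome 13 held 1.92% ± 0.242. The activity-regulated miR-212 and miR-132 pair on chromosome 11, which neurons switch on through CREB, held 0.748% ± 0.230.

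Between runs, 0 of the 10 largest clusters were called (exact permutation test, adjusted over 10), with 3 at an unadjusted p under 0.05, and the smallest was the Nfyc pair (exact p = 0.00556, adjusted p = 0.0556). The number called was 4 without vehicle replicate 3, 2 without replicate 5, 3 without replicate 6 and 1 without replicate 7. It was 2 with miRNAs of several loci left out. By annotated context, hairpins in exons of noncoding genes on the same strand held 25.7% ± 4.09 of the reads and those in introns of such genes 17.2% ± 1.66. Hairpins in introns of protein-coding genes on the same strand were the most numerous, 72 of 232, and held 15.7% ± 1.99, while 7 more lay in such introns on the opposite strand and held 1.23% ± 0.467. Only 7 hairpins lay opposite exons of protein-coding genes, and these held 23.95% ± 6.84. The 65 hairpins with no annotated gene held 8.27% ± 0.945.

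**Figure D2:**
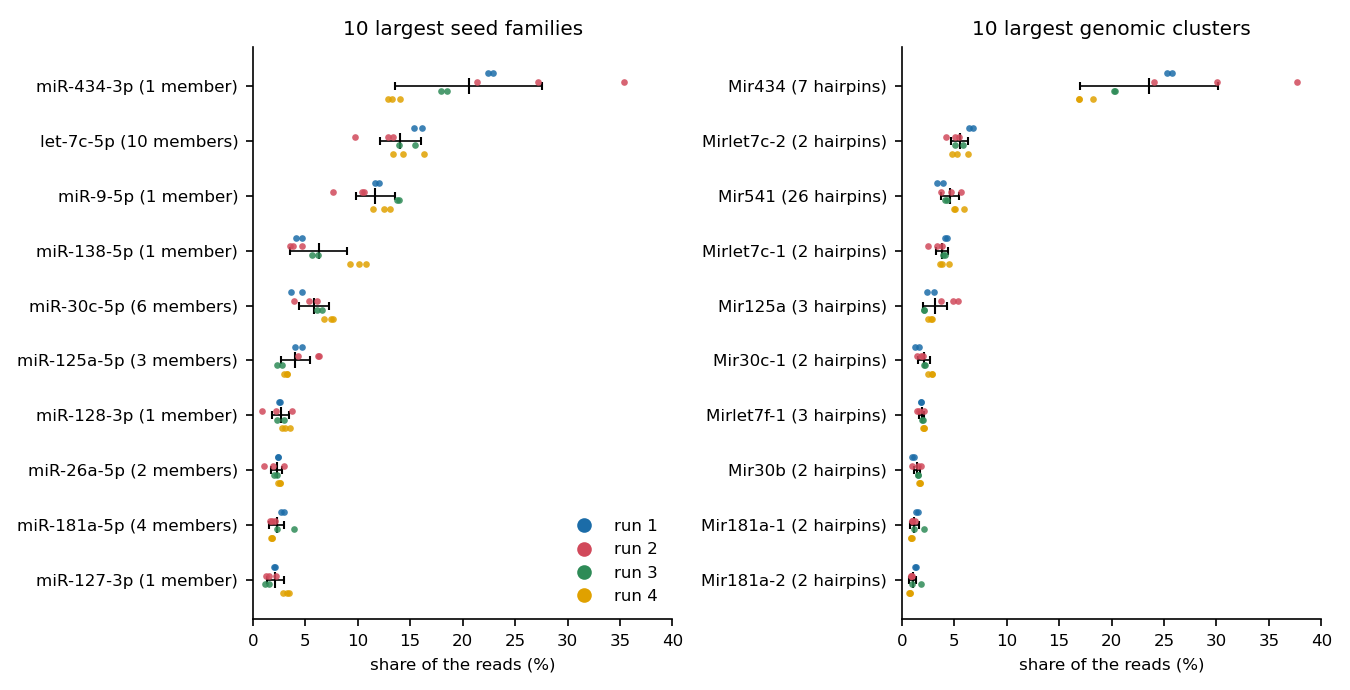
Share of the reads (x axis, percent) of the 10 largest seed families (left) and the 10 largest genomic clusters (right), named by their leading member. Points are the 10 vehicle libraries coloured by run, and the bar is the mean ± SD, from 20.6% for miR-434-3p to 2.13% for miR-127-3p on the left and from 23.5% to 1.05% on the right.

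Hairpins ranged from near-even arms to a large excess of 1 arm. Both arms were listed for 62 hairpins, and the log2 ratio of 5p to 3p was taken within each library. With 10 of 10 libraries on the same side, 25 hairpins had more 5p and 22 more 3p, while in 15 the higher arm was not the same in all libraries. In limma's test of the mean ratio against 0, which has no term for run and is adjusted over 62 hairpins, 27 had 5p above 3p (43.5% of those tested) and 28 had 3p above 5p (45.2%). The other 7 were not called. With the mean of run means, in a fit with run as a factor, 31 and 28 were called. The median size of the ratio was 2.35 on the log2 scale, 20 hairpins had arms more than 16-fold apart and 11 less than 2-fold. An arm outside the table is not counted, so hairpins with a rarer other arm are missing here. Over all miRNAs, the 131 with a 5p name took 56.7% ± 5.76 of the reads, the 136 with a 3p name 42.5% ± 5.59 and the 14 with no arm in their name 0.747% ± 0.381 (SD, n = 10).

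The most 3p-sided hairpin was miR-434, whose ratio was -10.64, -8.17 and -7.62 in the lowest, median and highest library. Its mean of -8.62 (SE 0.28, limma adjusted p = 4.15e-16) equals a 394-fold excess of 3p, with 416 mean reads for the 5p arm. The lowest ratio was that of vehicle replicate 5, and the mean without it was -8.40. Next were miR-22 at -6.87, the imprinted miR-127 at -6.26, the cartilage-linked miR-140 at -5.71 and miR-132 at -5.40. On the 5p side the mean ratio was 6.81 for let-7i, 6.78 for miR-9, 6.33 for miR-30a, 5.97 for miR-30e and 5.42 for let-7b. For miR-9 the ratio lay between 6.02 and 7.55 (SE 0.18, adjusted p = 5.74e-17), so that 99.05% ± 0.328 of its reads were 5p. The other arm, miR-9-3p, still ranked 90 with 0.114% of all reads. These 10 hairpins had the same higher arm in 10 of 10 libraries.

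The most even hairpins were miR-329 at 0.08, miR-379 at 0.20, miR-153 at -0.26, miR-7080 at 0.32 and miR-423 at 0.37. None of these 5 was called, with limma adjusted p between 0.0600 and 0.751 and no term for run. With the mean of run means miR-423 (0.42, adjusted p = 0.00645) and miR-7080 (0.37, adjusted p = 0.0314) were called for 5p, and the other 3 had adjusted p between 0.201 and 0.703. For miR-153, a neuronal miRNA, 5p was higher in 5 of 10 libraries, and the ratio ran from -1.13 to 0.95. The hairpins miR-329 and miR-379 both belong to the Mirg cluster. The largest spread between mice was that of miR-212, with an SD of 1.20 and ratios of -4.44, -2.44 and -0.23 in the lowest, median and highest library. Then came miR-320 with 1.19, miR-34b with 1.16, miR-350 with 1.13 and miR-1843b with 1.10. The lower arm averaged 63.2 reads in miR-212, 142.5 in miR-320, 81.5 in miR-34b, 50.7 in miR-350 and 76.8 in miR-1843b. Counting reads alone would give these ratios SDs between 0.17 for miR-320 and 0.32 for miR-212. Between mice of the same run the SD was 0.82 for miR-212 and 1.21 for miR-320. It was 0.35 for miR-34b, 0.55 for miR-350 and 0.50 for miR-1843b, whose spread lay mostly between runs. The median SD over the 62 ratios was 0.67, or 0.48 between mice of the same run, against 0.20 from counting reads alone.

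A further 14 miRNAs name 1 arm of a single locus whose other arm is shared by several loci. The locus arm was lower than the shared arm in 10 of 10 libraries for 11 of them, by 8.99 for let-7c-2-3p and by 9.26 and 9.29 for miR-138-1-3p and miR-138-2-3p on the log2 scale. The others were miR-129-2-3p and miR-7a-2-3p, lower in 9 of 10, and miR-219a-2-3p, which was higher than miR-219a-5p in 9 of 10 libraries by 1.16 ± 1.02 (SD). This last is a miRNA of myelinating oligodendrocytes. Of the 54 hairpins with both sequences, the higher arm begins with U in 26 and the lower arm in 13. In 19 hairpins only the higher arm does so, in 6 only the lower, and in 29 both or neither.

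**Figure D3:**
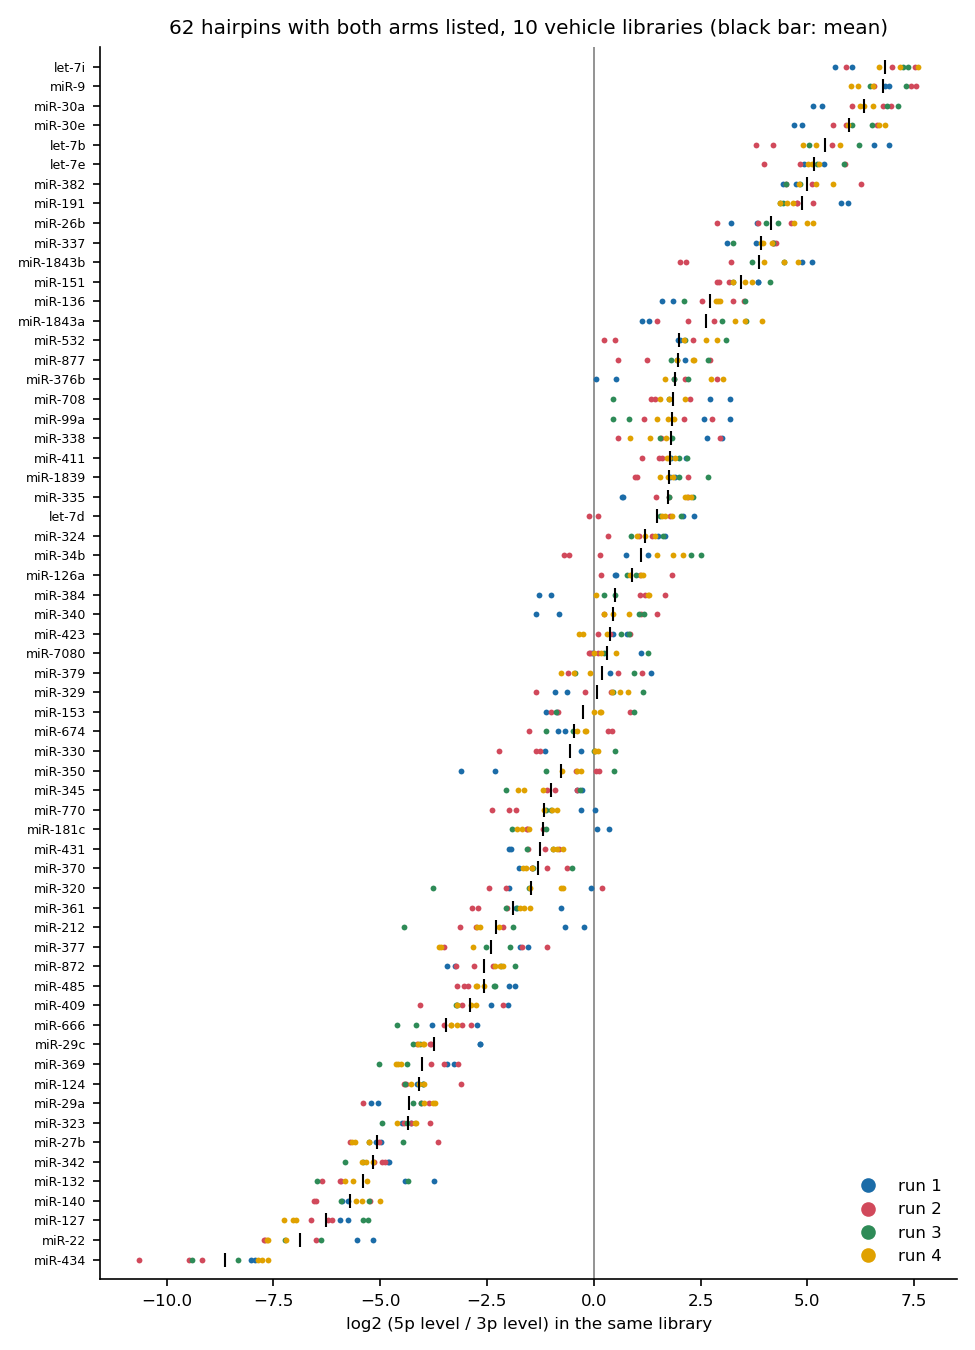
log2 ratio of the 5p to the 3p level (x axis) for the 62 hairpins with both arms listed, ordered by their mean, with 1 point per vehicle library coloured by run and a black bar at the mean. The means run from -8.62 for miR-434 to 6.81 for let-7i, and the points of 15 hairpins lie on both sides of 0.

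The spread between mice of the same run was above counting error in 276 miRNAs, all but 5. The median SD of a log2 level over the 10 libraries was 0.53. Between mice of the same run it was 0.36, and counting reads alone would give 0.11. The median within-run SD was 0.29 for ranks 1 to 71, 0.37 for ranks 72 to 141, 0.40 for ranks 142 to 211 and 0.36 from rank 212 to the last. Over these rank groups the counting SD was 0.034, 0.079, 0.15 and 0.21.

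The steadiest miRNAs within runs were miR-181c-3p with an SD of 0.091, let-7d-5p with 0.092, let-7a-5p with 0.10, miR-872-3p with 0.11 and miR-191-5p with 0.12. Of these, let-7d-5p was steady over all libraries too, from 12.03 to 12.32. In contrast miR-191-5p differed by run, with means of 11.46, 10.62, 10.23 and 10.94. The widest were miR-1957a with 1.43, miR-1961 with 1.32, miR-1195 with 1.30, miR-320-3p with 1.24 and miR-6240 with 1.12. The listed sequences of miR-6240 and miR-1961 have 26 and 17 bases, and whether their reads come from miRNAs was not tested. The highest level of miR-1957a was 12.83 in vehicle replicate 7, and the other library of run 3 stood at 8.49. The highest levels of miR-1961 and miR-320-3p were both in vehicle replicate 5, at 9.36 and 11.23. Without that library the within-run SD was 1.22 for miR-1961, 1.03 for miR-1195 and 0.993 for miR-320-3p. An SD above 1 was found for 7 miRNAs, or 5 without replicate 5.

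**Figure D4:**
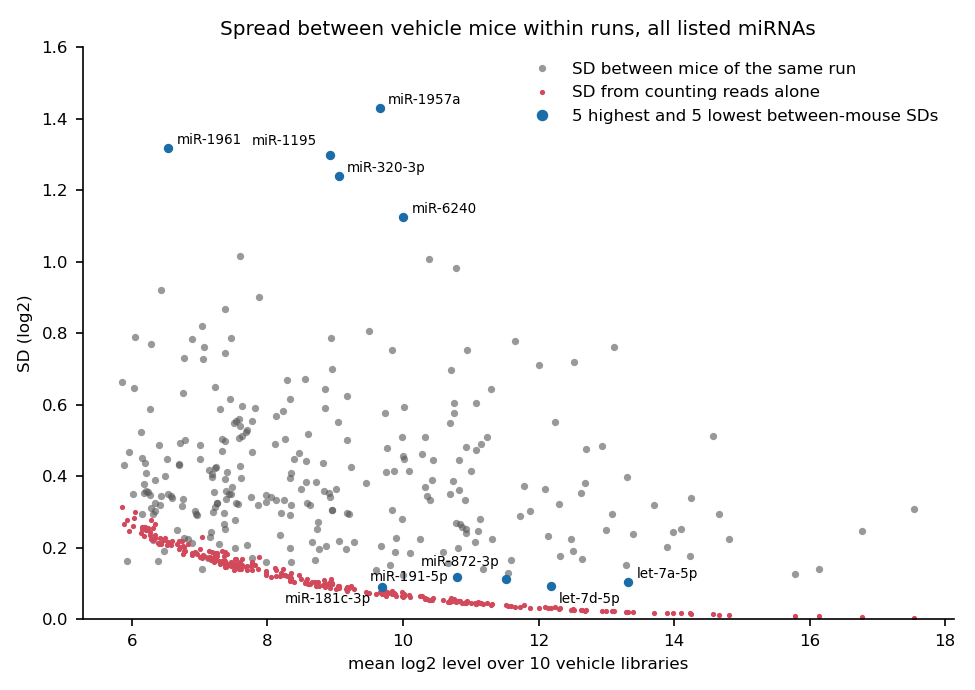
SD of the log2 level between vehicle mice of the same run (y axis) against the mean log2 level (x axis) for the listed miRNAs in grey, with the 5 highest and 5 lowest in blue and named, and the SD from counting reads alone in red. The SDs run from 0.091 for miR-181c-3p to 1.43 for miR-1957a, and the counting SD falls as the level rises.

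Run took a large part of the spread between vehicle mice. The 4 runs held 65.2% of the summed squares over all miRNAs, where their 3 of 9 degrees of freedom are 33.3%. Library pairs of the same run had a median Spearman rho of 0.968 across miRNAs (8 pairs), and pairs of different runs 0.900 (37 pairs), as a description, since libraries recur in several pairs. The ranges overlapped, from 0.887 to 0.986 for the same run and from 0.829 to 0.967 for different runs. In limma's moderated F test, 91 miRNAs had an adjusted p under 0.05 for a difference between runs, which is 32.4% of all those tested, and 146 had an unadjusted p under 0.05. Between pairs of runs, 33 were higher and 36 lower in run 2 than in run 1, 25 higher and 38 lower in run 4 than in run 2, and 1 higher and 0 lower in run 4 than in run 3. With each library left out, 28, 16, 59 and 151 miRNAs were called without vehicle replicates 1, 2, 3 and 4, and 38, 39 and 40 without replicates 8, 9 and 10. Depth varied within runs too, between 323357 and 1008180 reads in run 1 and between 240475 and 931440 in run 2. It was high in all 3 libraries of run 4. The part of depth in the differences between runs was not tested.

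The 10 miRNAs with the smallest p between runs were of several kinds. For the spine-linked miR-138-5p the log2 level averaged 15.28, 15.40, 15.80 and 16.48 in runs 1 to 4 (limma adjusted p = 0.00467). The libraries of run 4, at 16.40 to 16.58, did not overlap with the other 7, which lay between 15.18 and 15.81. For miR-99b-5p the means were 9.17, 7.87, 6.69 and 6.42 (adjusted p = 0.00467), and the libraries of run 1 were the highest. Its neighbour in Spaca6, miR-125a-5p, was highest in run 2, with 14.34, 15.49, 14.08 and 14.43.

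In the Mirg cluster, miR-485-3p, of a hairpin whose other arm acts at synapses in rat neurons, had 9.25, 10.62, 8.91 and 9.28 (adjusted p = 0.00511). From the same cluster miR-411-5p had 10.28, 11.83, 12.04 and 12.58 and miR-411-3p 8.30, 10.41, 9.95 and 10.79 (adjusted p = 0.00924 each). So both arms of 1 hairpin were lowest in run 1, while miR-485-3p was highest in run 2. The remaining 5 were miR-1981-5p, highest in run 2 at 8.74 (adjusted p = 0.00583), miR-486b-5p, highest in run 2 at 8.51, and miR-342-5p, from an intron of Evl, lowest in run 3 at 5.21. Then came miR-181a-5p, highest in run 1 at 14.04, and miR-6481, lowest in run 2 at 5.98 (adjusted p = 0.00924 each for these 4). Without vehicle replicate 2 the adjusted p was 0.0606 for miR-411-5p, 0.0670 for miR-411-3p and 0.0630 for miR-181a-5p.

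**Figure D5:**
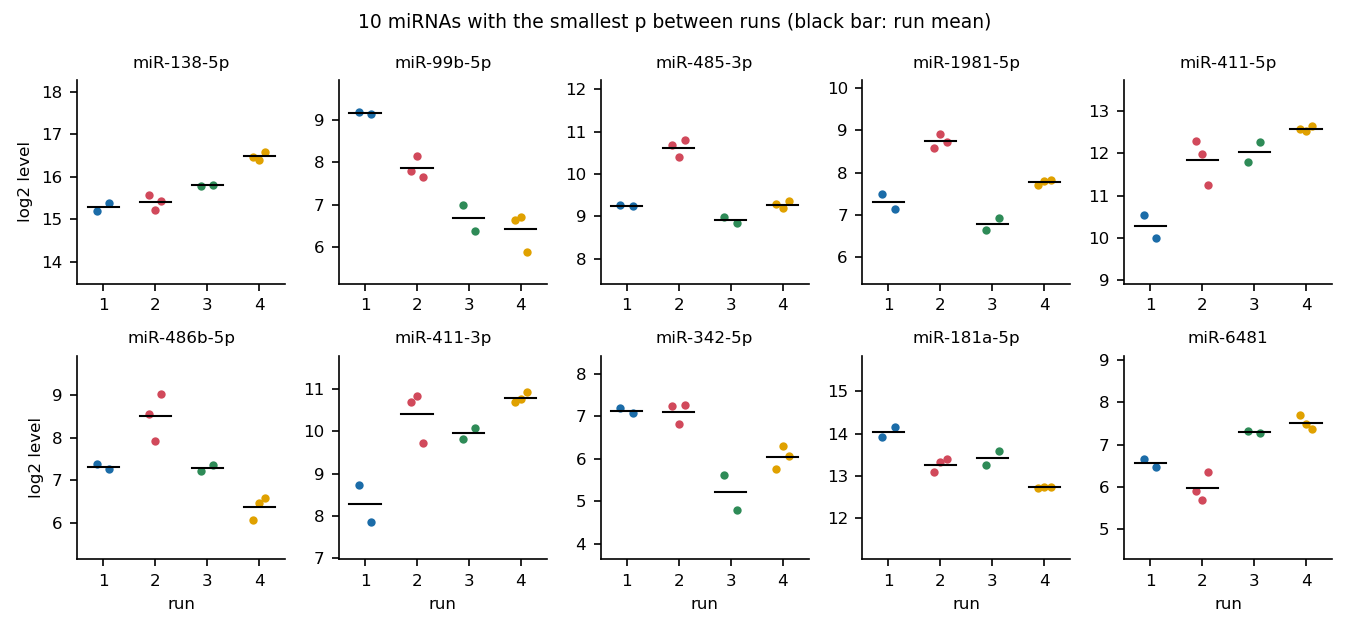
log2 level (y axis, with the same span of 4.8 in every panel) by run (x axis) of the 10 miRNAs with the smallest p between runs, with 1 point per vehicle library and a black bar at the run mean. For miR-138-5p the run means go 15.28, 15.40, 15.80 and 16.48, and for miR-99b-5p 9.17, 7.87, 6.69 and 6.42.

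Arm ratios, in which the scale of a library cancels, also differed between runs. Of the 62 ratios, 27 were called in limma's F test (43.5%), or 15 without vehicle replicate 1 and 9 without replicate 2. The ratio of miR-34b averaged 1.01, -0.38, 2.39 and 1.81 in runs 1 to 4 (adjusted p = 0.00352), so its higher arm was 5p in 3 runs and on average 3p in run 2. For miR-350 it was -2.71 in run 1 and between -0.48 and -0.08 in the others (adjusted p = 0.00570). For miR-212, which with miR-132 responds to neuronal activity, it was -0.46 in run 1 and between -3.17 and -2.54 in the others (adjusted p = 0.0225). Its partner miR-132 had -4.07 in run 1 and between -6.07 and -5.41 in the others (adjusted p = 0.0488).

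The 10 CBD libraries of the same runs are other mice, and their levels are given here by run alone. The deviation of each run's mean from its own group's mean was set beside that of the vehicle mice across all listed miRNAs. Pearson's r was 0.646, 0.778, 0.552 and 0.441 in runs 1 to 4, as a description, since miRNAs are not independent. Single miRNAs did not all follow the vehicle runs. In the CBD mice miR-1981-5p, miR-485-3p and miR-486b-5p were highest in run 2 too, at 8.58, 10.29 and 7.77. There miR-99b-5p and miR-181a-5p were again highest in run 1, miR-411-5p lowest in run 1 and miR-6481 lowest in run 2. For miR-138-5p the CBD run means were 15.60, 15.71, 16.05 and 16.02, highest in run 3 and not in run 4. Those of miR-411-3p were 9.84, 10.65, 9.62 and 9.92, lowest in run 3 and not in run 1. For miR-342-5p the CBD run means were 6.57, 7.18, 7.11 and 5.88, lowest in run 4 and not in run 3.

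The tissue label was set against markers of neurons and of other cell types that a dissected hippocampus could hold. In bulk tissue, fewer cells of a type and less RNA per cell cannot be told apart. All 11 neuronal markers were listed, with a summed share of 22.5% ± 4.42 (16.4% to 28.8%). Most of it came from miR-9-5p at 11.7%, which also acts in neural progenitors, miR-138-5p at 6.27% and miR-128-3p at 2.65%. The sum is therefore not a measure of the reads that came from neurons. The neuronal miR-124-3p had 0.202% of the reads and ranked 61, beside miR-137-3p at 0.201% and miR-218-5p at 0.193%. The activity-regulated miR-132-3p had 0.689% and miR-212-3p 0.0341%. All 4 oligodendrocyte markers were listed, with a sum of 0.312% ± 0.204, led by miR-338-5p at 0.226%. Both endothelial arms of miR-126a summed to 0.158% ± 0.0581, and 2 of 3 smooth muscle markers, miR-143-3p and miR-145a-5p, to 0.399% ± 0.170.

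Of the 7 microglia and leukocyte markers 3 were listed, with a sum of 0.987% ± 0.608. Most of it was miR-150-5p, a miRNA of mature lymphocytes, at 0.834% ± 0.633, with 0.248%, 0.685% and 2.44% in the lowest, median and highest library. Its run means were 0.298%, 1.47%, 0.516% and 0.765%. Both arms of miR-142a, miR-223-3p and miR-155-5p are not among the miRNAs analysed here, nor are the 3 striated muscle and 5 epithelial markers. The 3 erythrocyte markers were not listed under their own names. However, miR-486b-5p, of the same number and arm as the erythrocyte marker miR-486a-5p, was listed. An absence of red cell RNA therefore cannot be read from these lists. Of the 8 choroid plexus and ependyma markers 4 were listed, with a sum of 1.28% ± 0.976 (0.412% to 3.37%), led by miR-204-5p. The summed share of this list is high where miR-204-5p is, and that miRNA averaged 1.03%, 0.557%, 2.42% and 0.935% in runs 1 to 4. The ciliated cell miRNA miR-34b-5p had mean log2 levels of 7.32, 6.29, 10.41 and 8.17 in the same order. The part of choroid plexus or ependymal RNA in the differences between runs was not tested. The 2 pituitary and endocrine markers, miR-375-3p and miR-7a-5p, summed to 0.0441% and 1 of 2 liver markers, miR-192-5p, to 0.0202%.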

How the data were processed

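Total RNA was extracted with Trizol and made into small RNA libraries with an Illumina TruSeq kit, size-selected on a Pippin Prep, per the labels' protocols. The deposited table holds log2 expression values of 281 miRNAs, computed by the authors, and edgeR, limma and the build mm10 are named in the submitters' processing notes with no version or role. The sources used here do not give the aligner, the counter, the catalogue or the rule that limited the table to 281 miRNAs. The deposited technical table gives library size, run and number of miRNAs, per the file headers. Each log2 value was log2((n + 0.5) / (L + 1) × 1000000) with a whole number n within 1e-06 for 100% of values, and a scaling factor of 0.788 to 1.11 in the vehicle libraries. Shares were computed from these reads over the 281 miRNAs. All vehicle columns were used and no miRNA was filtered.

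Tests used limma 3.58.1 in R 4.3.3 with a variance trend, on the deposited log2 values or arm ratios with run as the only factor for differences between runs, and on arm ratios with a mean alone and no term for run for 5p against 3p, or exact permutation tests in Python 3.11.15 with numpy 2.4.6, two-sided, with Benjamini-Hochberg adjustment and a threshold of 0.05. Labels do not say whether mice shared a litter or cage, so p-values measure the spread between these libraries. Loci came from RefSeq and GENCODE annotation of GRCm38 for 280 of 281 miRNAs.

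The mice, lists and tests were chosen with earlier results of these data known. Named were the 20 highest and 5 lowest miRNAs by share, members of the 5 largest families with at least 1% of reads, the 10 smallest p between runs, the 5 largest and 5 smallest within-run SDs, the 5 most 5p-sided, 3p-sided and even hairpins, the 5 with the widest ratio, and the cell type markers. Any other was chosen after its values were seen. Alternatives were other scalings, filters, weights, family and cluster definitions, all 20 libraries, and leaving out each library or run.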

Additional observations from a re-analysis of the deposited data

Results flagged for a closer look

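Over 82 sets of 10 values, chance would single out about 1 in 20, or 4.1, and in 7 sets 1 library stood far from the 9 others. Vehicle replicate 5, the shallowest library, had the lowest share of miR-128-3p at 0.884% (next 2.22%), of let-7a-5p at 0.702% (next 0.978%) and of the let-7 family at 9.75% (next 12.9%). Vehicle replicate 7 had the highest share of miR-181b-5p at 2.36% (next 0.860%), of the miR-181a-1 and miR-181b-1 cluster at 2.16% (next 1.53%), and the highest log2 level of miR-1957a at 12.83 (next 10.38). Vehicle replicate 4 had the highest summed share of microglia and leukocyte markers, 2.51% (next 1.40%). Because shares sum to 100%, low shares in replicate 5 stand beside its 35.4% for miR-434-3p.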

How the results depend on the processing

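Of the 20 most abundant miRNAs, 18 were also among the 20 highest by median share, 19 by mean log2 level and 20 by the mean of run means, and 19 to 20 with each library left out. Leaving out each library gave 3 to 4 separated neighbour pairs, 27 to 29 hairpins called for 5p and 26 to 28 for 3p. By the mean of run means 31 and 28 were called, and miR-423 (0.42) and miR-7080 (0.37) passed. The near-even ratio of miR-329 ran from -0.044 to 0.23 with 1 library left out, and was -0.0049 without vehicle replicate 8. The number of miRNAs that differed between runs was 97 after rescaling, 110 after median centring, 76 of 228 with the filter, 91 without the trend, 89 with voom weights and 135 over all 20 libraries. It was 17 and 10 without runs 1 and 4, 100 and 113 without runs 2 and 3, and 16 to 151 with 1 library left out, where runs 1 and 3 keep a single library, assumed to vary like the rest. The cause was not tested. For arm ratios between runs it was 25 over all 20 libraries and 9 to 37 with 1 library left out. Of the 10 miRNAs named for run, miR-1981-5p and miR-342-5p passed under every alternative run for them, and the lost calls had adjusted p between 0.0501 and 0.227. Of the 10 families, 1 to 7 were called with 1 library left out, and 6 by miRNA number or over the listed library size. Of the clusters, 0 to 4 were called with 1 library left out, 0 with 3000 or 50000 bases, and 2 with miRNAs of several loci left out. Under 3000 bases the Mirg cluster split, its largest piece holding 2.28%. Under 50000 bases the let-7c-1 cluster held 4.47%. Depth limits the order of the rarest miRNAs, which had as few as 5 reads. Intervals from reads would cover counting error only.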
